A study of Homo sapiens with 6 samples.

Results

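The VEGF ligands and neuropilin co-receptors described here are 6 genes taken by name, VEGFA, VEGFB, VEGFC, PGF, NRP1 and NRP2, out of 52989 genes to which the deposited transcripts could be matched. Their estimated counts were summed over all matched transcripts in each library, and transcript shares were taken for VEGFA and NRP2. RNA came from J82, an established human bladder cancer cell line, in 2 engineered versions. The tet-ZFP36L1 line overexpresses ZFP36L1 under doxycycline, and the tet-control line is its control. ZFP36L1 is a zinc finger protein that recognises AU-rich elements of mRNAs and recruits the decay machinery to them. Both lines were grown to near confluence and sampled without doxycycline (0 h) and after 6 and 24 h with it at 1 µg/mL, so the controls received the drug too. Each of the 6 groups had 1 library. The sources used here do not say whether either line is a clone or a pool.

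With no replicate, no test between groups was possible and no p-value is given. All intervals are 95% intervals for counting error. They hold neither the spread between cultures nor the uncertainty of dividing reads among transcripts. Reads carried no molecular identifiers and are not independent molecules. Estimated counts per library lay between 20739025 and 21380480. Levels are in CPM (counts per 1000000 counts) after TMM scaling, a correction for library composition, and values of a line are given in the order 0, 6 and 24 h. In tet-ZFP36L1 the level of ZFP36L1 itself was 220.2, 3127 and 3133 CPM, and in tet-control it was 233.8, 223.3 and 206.0 CPM. The last tet-ZFP36L1 library, at 24 h, differed from the rest, with a TMM factor of 1.115 against 0.941 to 1.006 in the others, and 15694 genes at 10 counts or more against 14514 to 14955, and every 24 h result rests on it. Of the bladder and epithelial markers, KRT7, KRT8 and KRT18 carried nearly all of the signal, whose sum was 1138 to 1616 CPM in tet-ZFP36L1 and 693.3 to 866.8 CPM in tet-control. Of the 12 genes listed, 5 to 7 had at least 10 counts in a library. CDH1, TP63, KRT5 and UPK1A had at most 14 counts in any library, and GATA3 at most 28. PPARG had 22 to 334 counts and EPCAM 61 to 87. The uroplakin genes UPK2 and UPK3A had 0 counts in every library. Summed endothelial markers (6 of 7 matched) stayed at 0.595 to 1.45 CPM in tet-ZFP36L1 and 0.506 to 1.49 CPM in tet-control. Summed leukocyte markers reached at most 0.835 CPM and fibroblast markers 24.3 CPM, both in tet-ZFP36L1.

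VEGF ligands are secreted growth factors for blood and lymphatic vessels. VEGFA is the main inducer of vessel growth, PGF and VEGFB bind the receptor FLT1, and VEGFC acts on lymphatic vessels through FLT4. Neuropilins are membrane proteins with short intracellular tails that act as co-receptors for VEGFs and, together with plexins, for class 3 semaphorins. NRP1 is best known in arteries and axons, NRP2 in veins, lymphatic vessels and many carcinoma cells. VEGFA mRNA is short-lived and carries AU-rich elements in its 3' UTR.

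The sequences shown first are those on which the comparison of 3' UTRs turns. They come from the GENCODE 29 transcripts on GRCh38, 5′ to 3′ in DNA letters, and capitals mark the 7-letter core TATTTAT of an AU-rich element. The annotated 3' UTRs of the members' matched coding transcripts were searched on the transcript strand only. Shares over other genes were taken for 1 coding transcript per gene. That was the coding transcript with the highest mean deposited TPM, a level scaled for transcript length. Its 3' UTR had to hold at least 50 bases. The VEGFA gene lies at chr6:43770184-43786487 on the plus strand. The 1925-base 3' UTR of its transcript VEGFA-206 held 3 copies of TATTTAT, at positions 1328, 1735 and 1836 of the UTR. It also held 3 copies of the related TATTTAA, and none of these overlaps a TATTTAT copy.
VEGFA, chr6:43785879-43785907, plus strand: ttaatttcaacTATTTATgagatgtatct
VEGFA, chr6:43786286-43786314, plus strand: ttgttatcattTATTTATtggtgctactg
VEGFA, chr6:43786387-43786415, plus strand: tccgtagtacaTATTTATttttaaacaac
The 848-base 3' UTR of PGF, on the minus strand of chromosome 14, held 2 copies, near its start.
PGF, chr14:74942648-74942676, minus strand: cccggctcgtgTATTTATtaccgtcacac
PGF, chr14:74942599-74942627, minus strand: tacctgccctcTATTTATtagccaactgt

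No copy of TATTTAT was found in the transcripts taken for the other 3 genes, with 460 bases of 3' UTR in VEGFB-201, 2582 in NRP1-206 and 3075 in NRP2-204. NRP1-206 and NRP2-204 each held 1 TATTTAA. Among the other matched transcripts of these 3 genes, NRP1-212, a truncated one with a 1796-base 3' UTR and 4 to 23 estimated counts a library, held 1 TATTTAT. Among 1708 genes with a 3' UTR within 20% of the length of that of VEGFA-206, 39.8% held at least 1 TATTTAT and 4.45% held at least 3. The members' transcripts were chosen by name and not by the rule for the other genes. By that rule VEGFA would be read from VEGFA-225, whose 340-base 3' UTR holds no TATTTAT. The shares thus describe VEGFA-206 and not VEGFA as a whole. For PGF the same shares were 22.5% with at least 1 and 5.02% with at least 2, over 1753 genes. At the lengths of the NRP2 and NRP1 3' UTRs, 55.8% of 1396 genes and 50.4% of 1566 genes held at least 1. A match describes letters in the annotated sequence and not binding, and whether ZFP36L1 binds any of these transcripts was not tested.

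VEGFA, NRP1 and NRP2 were lower after induction of ZFP36L1. VEGFB moved almost alike in both lines at 6 h and differed by less than 2-fold at 24 h. PGF had too few counts for the rule that follows. Here lower and higher mean that the change from 0 h in tet-ZFP36L1, and the induction difference (that change minus the one in tet-control), both reached 2-fold. The rule was applied where the mean count was 50 or more, which held for 4 of the 6 members and for 11908 genes in all. At 6 h 2 of the 4 measured members were lower, VEGFA and NRP2, against a background of 2.54% of all measured genes. By the deposited TPM, which scale for transcript length, neither reached the rule at 6 h. At 24 h 3 of 4 were lower, NRP1 being added, against a background of 4.98%. None was higher, where the background was 0.739% at 6 h and 2.74% at 24 h. The median induction difference of the 4 was -1.07 at 6 h and -1.46 at 24 h on the log2 scale, beside -0.01 and -0.02 over all measured genes. Without TMM scaling the median over all genes at 24 h was 0.15, and the background at that time was 3.22% lower and 4.10% higher, so the split between the directions over all genes depends on the scaling. The members counted at 24 h were the same 3 with either scaling.

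**Figure D1:**
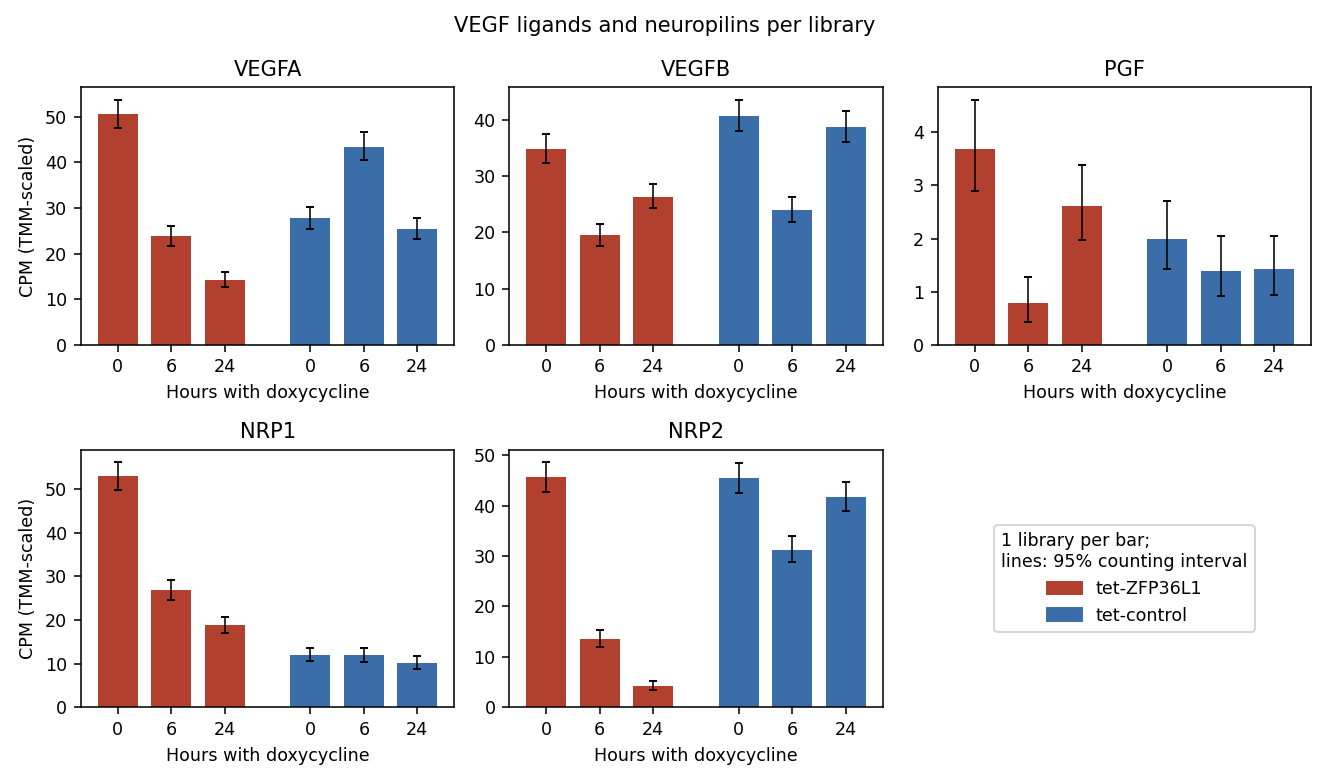
Level of each gene in CPM (TMM-scaled, linear axes starting at 0 that differ between panels) by hours with doxycycline, 1 library per bar, with 95% counting intervals. VEGFA, NRP1 and NRP2 step down over time in tet-ZFP36L1, to 14.2, 18.9 and 4.26 CPM at 24 h, where tet-control stands at 25.5, 10.2 and 41.7 CPM.

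VEGFA stood at 50.6, 23.7 and 14.2 CPM in tet-ZFP36L1 (1030, 458 and 310 counts), against 27.7, 43.4 and 25.5 CPM in tet-control (558, 812 and 503 counts). The uninduced tet-ZFP36L1 library was the highest of the 6 and the 24 h library of that line the lowest, while tet-control was high at 6 h alone. In order of level the libraries ran tet-ZFP36L1 0 h, tet-control 6 h, tet-control 0 h, tet-control 24 h, tet-ZFP36L1 6 h and tet-ZFP36L1 24 h. The neighbours tet-control 0 h and 24 h, and tet-control 24 h and tet-ZFP36L1 6 h, did not differ beyond counting error.

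The change in VEGFA from 0 h in tet-ZFP36L1 was -1.08 at 6 h (interval -1.23 to -0.92) and -1.80 at 24 h (-1.98 to -1.62) on the log2 scale. In tet-control it was 0.64 (0.49 to 0.79) and -0.12 (-0.29 to 0.05). At 6 h the lines thus moved in opposite directions, and the induction difference of -1.72 holds the increase in tet-control as well as the decrease in tet-ZFP36L1. Measured against tet-control at the same time, VEGFA was higher in tet-ZFP36L1 by 0.86 before induction and lower at 6 and 24 h, at -0.86 and -0.82. It therefore crossed the tet-control level, but by less than 2-fold on either side, and under a rule that also asks for a 2-fold gap to tet-control at the same time, VEGFA was not counted.

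**Figure D2:**
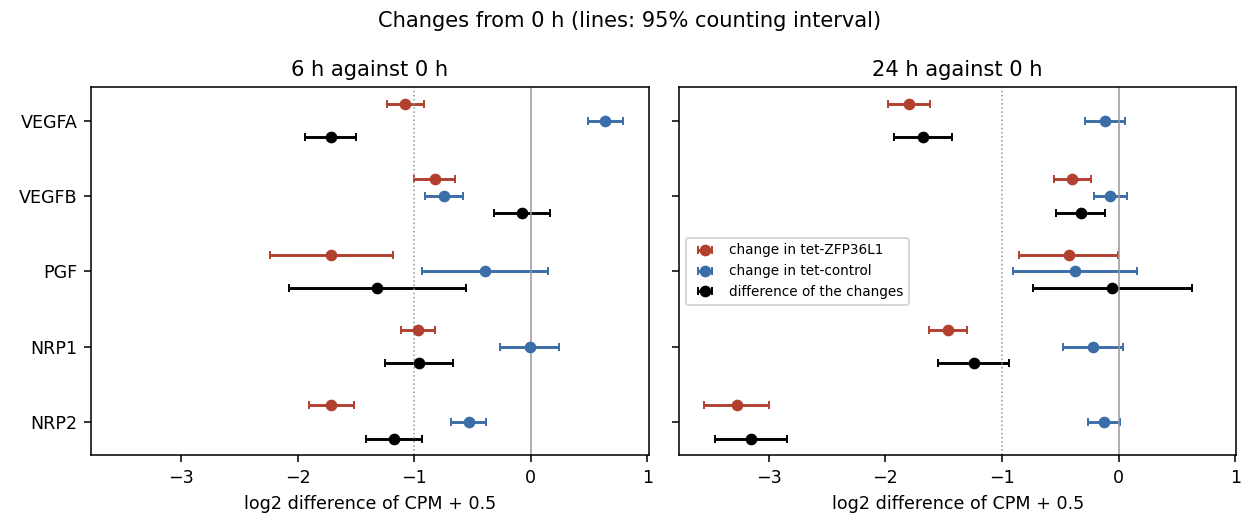
Log2 change from 0 h in tet-ZFP36L1 (red) and tet-control (blue) and the difference of these changes (black) for 5 genes at 6 and 24 h, with 95% counting intervals; the dotted line marks a 2-fold decrease. For VEGFA the 2 lines lie on opposite sides of 0 at 6 h, and for NRP2 the difference reaches -3.15 at 24 h.

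VEGFA transcripts did not move together. Of 32 annotated transcripts of the gene, 25 were found in the files, and they were split into 3 kinds. Coding transcripts with the 1925-base 3' UTR that holds the TATTTAT copies (3 transcripts) summed to 35.3, 11.1 and 6.34 CPM in tet-ZFP36L1 and 17.8, 25.96 and 15.1 CPM in tet-control. The other coding transcripts (16, with shorter or no annotated 3' UTR) summed to 8.47, 4.75 and 2.67 CPM in tet-ZFP36L1 and 6.41, 9.18 and 5.35 CPM in tet-control. Transcripts that retain an intron (6, noncoding) summed to 6.84, 7.86 and 5.18 CPM in tet-ZFP36L1 and 3.45, 8.31 and 4.96 CPM in tet-control. Both coding kinds stepped down with time in tet-ZFP36L1 and were highest at 6 h in tet-control, and the retained intron kind was highest at 6 h in both lines.

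The induction difference was -2.15 at 6 h and -2.16 at 24 h for coding transcripts with the copies, with intervals of -2.44 to -1.86 and -2.49 to -1.83. For the other coding transcripts it was -1.26 at both times (-1.72 to -0.80 and -1.77 to -0.76). For the retained intron kind it was -0.97 and -0.84 (-1.45 to -0.49 and -1.35 to -0.32). The own change of the retained intron kind in tet-ZFP36L1 was 0.19 at 6 h and -0.37 at 24 h, where the coding transcripts with the copies were at -1.62 and -2.39. Retained intron transcripts have no annotated 3' UTR and were not searched for TATTTAT, so they may hold copies too. These 3 kinds share most exons, so reads were divided among them by the authors' software, and a long 3' UTR was not compared apart from the copies it holds. The other coding kind is a sum over unlike transcripts, all without a copy. VEGFA-225 had 143.3, 28.4 and 17.2 estimated counts in tet-ZFP36L1 and 104.5, 89.8 and 45.3 in tet-control. VEGFA-222 had 29.1, 26.1 and 31.2 in tet-ZFP36L1 and 22.9, 35.2 and 12.5 in tet-control. VEGFA-201 had 0.0008, 35.7 and 3.997 in tet-ZFP36L1 and 0, 42.8 and 46.9 in tet-control. Whether transcripts with the copies fell more than VEGFA-225 was not tested.

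**Figure D3:**
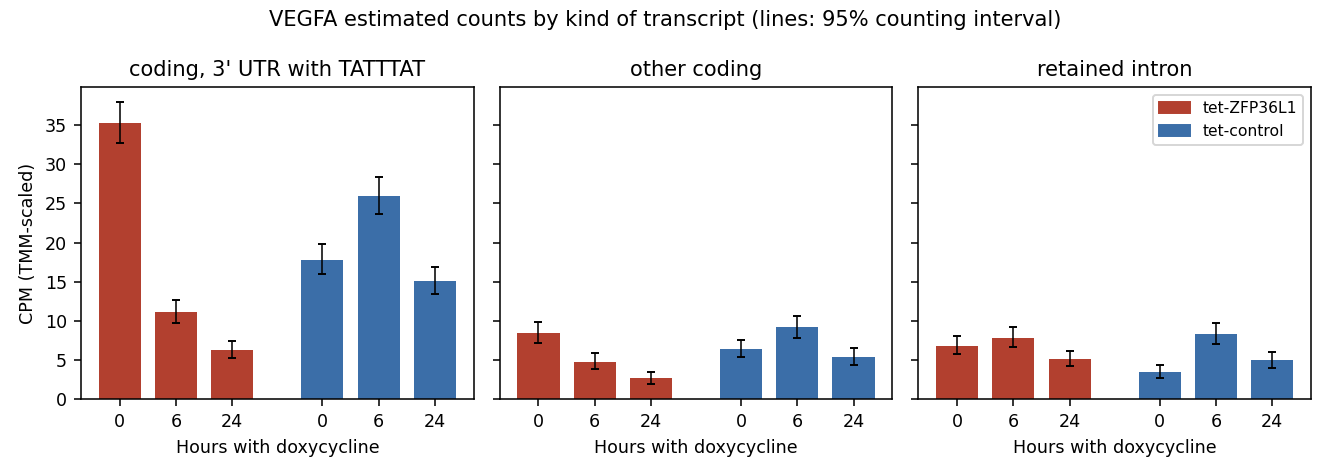
VEGFA estimated counts in CPM (TMM-scaled) by kind of transcript and hours with doxycycline, 1 library per bar, with 95% counting intervals. Coding transcripts with TATTTAT in the 3' UTR stand at 35.3, 11.1 and 6.34 CPM in tet-ZFP36L1, and retained intron transcripts at 6.84, 7.86 and 5.18 CPM.

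As a share of VEGFA estimated counts, retained intron transcripts held 13.5%, 33.1% and 36.5% in tet-ZFP36L1, with exact binomial intervals of 11.5 to 15.7, 28.9 to 37.7 and 31.1 to 42.1. In tet-control they held 12.5%, 19.1% and 19.5%, with intervals of 9.91 to 15.6, 16.4 to 21.96 and 16.1 to 23.2. The share was higher with doxycycline than without it in both lines, and at 6 and 24 h it was higher in tet-ZFP36L1 than in tet-control beyond counting error.

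VEGFA protein forms differ by coding exons near the end of the message that give binding to heparin and the cell surface. A 132-base exon (chr6:43781956-43782087) is present in the form known as VEGF165 and absent from the freely diffusing form known as VEGF121. A second variable exon of 72 bases (chr6:43780732-43780803) adds further binding and is also present in VEGF189. The joins that tell the forms apart are printed with the exon that follows the join in capitals.
VEGFA join with the 132-base exon: agcaagacaagaaaaTCCCTGTGGGCCTTG
VEGFA join without the 132-base exon: agcaagacaagaaaaATGTGACAAGCCGAG
Coding transcripts with the 132-base exon and without the 72-base one held 49.4%, 43.7% and 29.6% of VEGFA estimated counts in tet-ZFP36L1, against 26.6%, 27.6% and 27.0% in tet-control. Coding transcripts without the 132-base exon held 34.2%, 17.5% and 23.8% in tet-ZFP36L1, against 56.5%, 48.5% and 50.8% in tet-control. By these shares the lines already differed before induction. In tet-control the summed share with the 132-base exon moved little with time. The share without it was lower at 6 h (interval 45.0 to 52.0) than at 0 h (52.2 to 60.6) beyond counting error. By deposited TPM the form with the exon held 59.7%, 51.6% and 29.2% in tet-ZFP36L1 and 47.5%, 44.7% and 48.1% in tet-control, and the form without it 26.9%, 12.1% and 30.8% in tet-ZFP36L1 and 38.2%, 33.8% and 35.8% in tet-control. Which form is the larger in tet-control thus depends on the unit, while by both units tet-ZFP36L1 at 0 h had the larger share with the exon and the smaller share without it than tet-control. Of the 30.8% of TPM without the exon in tet-ZFP36L1 at 24 h, VEGFA-206 held 15.5%. The other 15.3% was VEGFA-210, a 414-base transcript with 5.94 estimated counts there.

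Both forms were lower after induction. In CPM the form with the exon stood at 25.0, 10.4 and 4.201 in tet-ZFP36L1 and 7.38, 11.996 and 6.89 in tet-control, with induction differences of -1.90 at 6 h and -2.35 at 24 h. The form without it stood at 17.3, 4.16 and 3.38 CPM in tet-ZFP36L1 and 15.7, 21.1 and 12.9 CPM in tet-control, with induction differences of -2.35 and -1.93. The intervals of the 2 forms overlap at each time, from -2.26 to -1.53 with the exon and -2.73 to -1.97 without it at 6 h, and from -2.77 to -1.92 and -2.33 to -1.54 at 24 h. Transcripts with both variable exons stayed at 1.43, 1.35 and 1.43 CPM in tet-ZFP36L1 and at 1.21, 2.08 and 0.68 CPM in tet-control, on 13 to 39 estimated counts a library.

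By single transcript, VEGFA-206 (147 codons, without the 132-base exon) held 34.2%, 17.5% and 21.9% of the estimated counts in tet-ZFP36L1 and 56.5%, 45.4% and 50.8% in tet-control. VEGFA-205, annotated with 371 codons through an upstream start that is not AUG and with the 132-base exon, held 35.5%, 29.4% and 22.8% in tet-ZFP36L1 and 7.91%, 11.3% and 8.71% in tet-control. VEGFA-225 (191 codons, with that exon and a 340-base 3' UTR) held 13.9%, 6.20% and 5.54% in tet-ZFP36L1 and 18.7%, 11.1% and 9.01% in tet-control. The difference between lines in the longer form thus lay in VEGFA-205. VEGFA-222 (215 codons, both variable exons) held at most 10.1%, in tet-ZFP36L1 at 24 h. Of the retained intron transcripts, VEGFA-215 held 8.20%, 17.7% and 24.5% in tet-ZFP36L1 and 6.75%, 6.22% and 11.9% in tet-control, and VEGFA-212 at most 12.02%, in tet-ZFP36L1 at 6 h.

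VEGFB, which is expressed widely and binds FLT1 and NRP1, stood at 34.9, 19.5 and 26.4 CPM in tet-ZFP36L1 and 40.8, 24.1 and 38.8 CPM in tet-control (376 to 711 counts in tet-ZFP36L1 and 450 to 822 in tet-control). In both lines the 6 h library was the lowest. The log2 change at 6 h was -0.83 in tet-ZFP36L1 and -0.75 in tet-control, which left an induction difference of -0.08 with an interval of -0.32 to 0.16. At 24 h the changes were -0.40 and -0.07, and the difference of -0.33 (-0.54 to -0.12) lay beyond counting error but under 2-fold. It was -0.08 by deposited TPM and -0.16 without TMM scaling. The lowest level, tet-ZFP36L1 at 6 h, and the next, tet-control at 6 h, were apart beyond counting error, while tet-control at 6 h and tet-ZFP36L1 at 24 h were not, nor were tet-control at 0 and 24 h.

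PGF, the placental growth factor, had 75, 15 and 57 counts in tet-ZFP36L1 and 40, 26 and 28 counts in tet-control, a mean of 40.2 that is under the minimum for counting. That is 3.68, 0.778 and 2.61 CPM in tet-ZFP36L1 and 1.99, 1.39 and 1.42 CPM in tet-control. The 6 h library of tet-ZFP36L1 was the lowest, yet no pair of neighbours in the order of levels differed beyond counting error. Against its own 0 h, PGF in tet-ZFP36L1 changed by -1.71 at 6 h (-2.24 to -1.18) and -0.43 at 24 h (-0.85 to -0.002). In tet-control the changes were -0.39 (-0.94 to 0.15) and -0.37 (-0.91 to 0.16). The induction difference was -1.32 at 6 h (-2.07 to -0.56) and -0.05 at 24 h (-0.74 to 0.63). The value at 6 h was thus not kept at 24 h.

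For VEGFC, at chr4:176683538-176792727 on the minus strand, 1 of 2 annotated transcripts was matched, a noncoding one of 759 bases. It had 0, 5 and 25 estimated counts in tet-ZFP36L1 and 0, 6 and 4 in tet-control, with the 24 h library of tet-ZFP36L1 alone above 6. The coding transcript was not analysed here, so no level of VEGFC mRNA is given.

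NRP1 stood at 52.9, 26.8 and 18.9 CPM in tet-ZFP36L1 (1078, 517 and 412 counts), against 12.01, 11.9 and 10.2 CPM in tet-control (242, 223 and 202 counts). All 3 tet-ZFP36L1 libraries lay above all 3 tet-control libraries, which did not differ among neighbours beyond counting error. Before induction NRP1 was thus 4.41-fold higher in tet-ZFP36L1 than in tet-control, a log2 difference of 2.09, and 5.05% of measured genes were higher by at least 2-fold in that comparison. The difference was 1.13 at 6 h, when 5.14% of genes were that much higher, and 0.85 at 24 h, when 8.91% were. The own change in tet-ZFP36L1 was -0.97 at 6 h (-1.12 to -0.82) and -1.47 at 24 h (-1.63 to -1.30), and the induction difference was -0.96 (-1.25 to -0.67) and -1.24 (-1.55 to -0.94). NRP1 was therefore just short of 2-fold at 6 h and past it at 24 h, and it moved towards the tet-control level without reaching it.

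NRP1 coding transcripts fell into those whose last exon is that of the membrane-bound protein and truncated ones, which include soluble forms known to bind VEGFA without acting as a co-receptor. The membrane kind stood at 45.1, 18.9 and 13.98 CPM in tet-ZFP36L1 and 9.30, 7.70 and 8.15 CPM in tet-control. Truncated transcripts stood at 7.86, 7.91 and 4.89 CPM in tet-ZFP36L1 and 2.71, 4.23 and 2.07 CPM in tet-control. The membrane kind was lower at 6 h in tet-ZFP36L1 (-1.23) where the truncated kind was level (0.01). The truncated share was 14.9%, 29.5% and 25.9% in tet-ZFP36L1 and 22.5%, 35.5% and 20.3% in tet-control, so it was highest at 6 h in both lines. The induction differences of the membrane kind (-0.97 at 6 h and -1.47 at 24 h) and of the truncated kind (-0.55 and -0.32) had overlapping intervals at 6 h, and at 24 h they ran from -1.81 to -1.13 and from -0.90 to 0.27.

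NRP2 had the largest decrease within tet-ZFP36L1 of the measured members at both times, while by the induction difference VEGFA came before it at 6 h. It stood at 45.6, 13.6 and 4.26 CPM in tet-ZFP36L1 (928, 262 and 93 counts), against 45.5, 31.2 and 41.7 CPM in tet-control (916, 584 and 823 counts). The lines were level before induction, at 0.00 on the log2 scale. After it both tet-ZFP36L1 libraries lay below every tet-control library, the 24 h one by a log2 difference of -3.15 at the same time. At that time 8.32% of measured genes were lower by at least 2-fold between the lines, and at 6 h 6.13%.

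The own change of NRP2 in tet-ZFP36L1 was -1.71 at 6 h (-1.90 to -1.52) and -3.28 at 24 h (-3.55 to -3.00). In tet-control it was -0.53 (-0.68 to -0.39) and -0.12, so by CPM the decrease at 6 h was largely gone at 24 h. The induction difference was -1.18 at 6 h (-1.42 to -0.93) and -3.15 at 24 h (-3.46 to -2.84). NRP2 alone among the measured members was also 2-fold lower than tet-control at the same time, at both 6 and 24 h. In the deposited TPM, in which short transcripts weigh more, NRP2 stood at 23.03, 10.8 and 5.21 in tet-ZFP36L1 and 20.3, 16.1 and 13.3 in tet-control, where it was thus lowest at 24 h. The induction difference by TPM was -0.73 at 6 h and -1.45 at 24 h.

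The 2 membrane forms of NRP2 end in different coding exons and so have different transmembrane and intracellular tails. NRP2a ends in a motif that binds the PDZ domain of the adaptor GIPC1, and NRP2b lacks it. The last coding exon of NRP2a lies at chr2:205794754-205795055 and that of NRP2b at chr2:205776246-205776523. The ends of the 2 reading frames are printed with the stop codon in capitals, since the result turns on which tail was read.
NRP2a, transcript NRP2-204, chr2:205795029-205795058, plus strand: aaccaccaaaagtgctgctccgaggcaTGA
NRP2b, transcript NRP2-202, chr2:205776497-205776526, plus strand: ctagagcaagaccgtggctcgcactgcTGA
Transcripts with the NRP2a tail had 608.8, 120.2 and 4.15 estimated counts in tet-ZFP36L1, against 612.4, 261.8 and 648.9 in tet-control. Transcripts with the NRP2b tail had 206.3, 78.3 and 60.8 in tet-ZFP36L1, against 208.5, 236.4 and 119.6 in tet-control. Before induction the lines held nearly the same amounts of both tails. At 24 h NRP2a was nearly absent from tet-ZFP36L1 alone, while NRP2b was still found there.

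In CPM, NRP2a stood at 29.9, 6.23 and 0.19 in tet-ZFP36L1 and 30.4, 14.01 and 32.8 in tet-control, and NRP2b at 10.1, 4.06 and 2.78 in tet-ZFP36L1 and 10.3, 12.7 and 6.05 in tet-control. The induction difference of NRP2a was -1.08 at 6 h (-1.42 to -0.75) and -5.57 at 24 h (-6.00 to -5.14). That of NRP2b was -1.50 at 6 h (-1.93 to -1.07) and -0.97 at 24 h (-1.44 to -0.50). At 6 h the intervals overlap, and at 24 h they lie far apart. The value for NRP2a at 24 h rests on 4 estimated counts and on a pseudocount of 0.5, and its exact counting interval in CPM was 0.05 to 0.469.

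**Figure D4:**
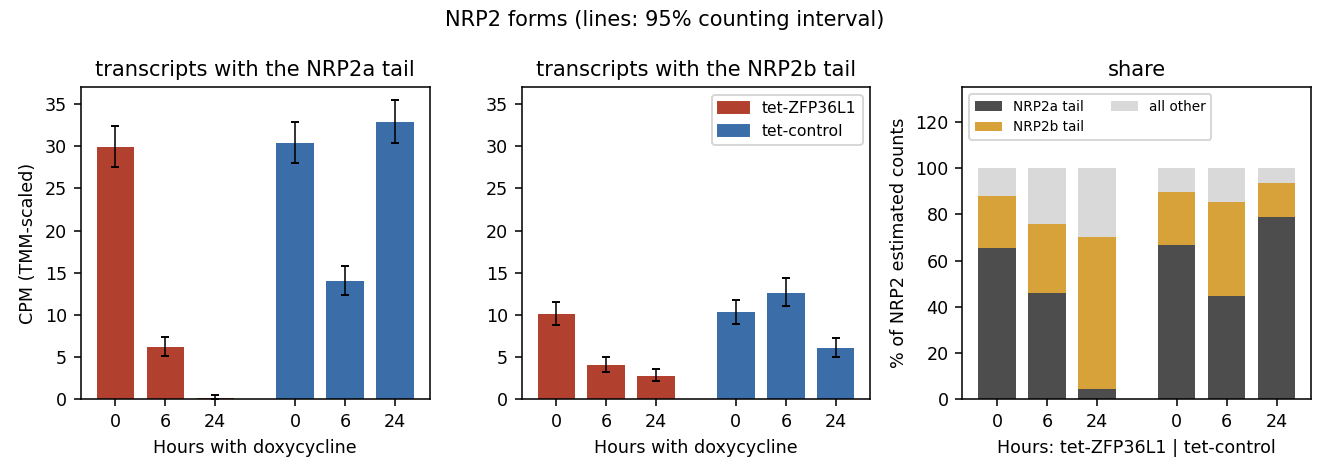
Transcripts with the NRP2a and the NRP2b tail in CPM (TMM-scaled) by hours with doxycycline, 1 library per bar with 95% counting intervals, and the share of each in NRP2 estimated counts. The NRP2a share is 4.48% in tet-ZFP36L1 at 24 h and 78.8% in tet-control at 24 h.

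NRP2a held 65.6%, 45.9% and 4.48% of NRP2 estimated counts in tet-ZFP36L1, with an exact binomial interval of 1.18 to 10.6 at 24 h. In tet-control it held 66.9%, 44.9% and 78.8%. The share at 6 h was thus lower than at 0 h in both lines by like amounts, and the lines parted at 24 h. NRP2b held 22.2%, 29.9% and 65.7% in tet-ZFP36L1 and 22.8%, 40.5% and 14.5% in tet-control. By deposited TPM the NRP2a share was 25.99%, 12.4% and 0.77% in tet-ZFP36L1 and 35.8%, 22.3% and 45.6% in tet-control, with the same order of libraries within each line. The NRP2b share by TPM was 17.9%, 14.7% and 22.9% in tet-ZFP36L1 and 19.7%, 29.3% and 17.1% in tet-control, so the high NRP2b share in tet-ZFP36L1 at 24 h was not seen in that unit.

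By single transcript, NRP2-204 (931 codons, NRP2a, with a 3075-base 3' UTR) held 65.6%, 41.9% and 4.48% in tet-ZFP36L1 and 54.1%, 31.7% and 78.8% in tet-control. NRP2-203, which shares its tail and has a 114-base 3' UTR, held 0.041%, 3.93% and 0% in tet-ZFP36L1 and 12.7%, 13.2% and 0% in tet-control. NRP2-202 (901 codons, NRP2b, with a 630-base 3' UTR) held 15.2%, 29.9% and 65.3% in tet-ZFP36L1 and 22.8%, 40.5% and 14.5% in tet-control. NRP2-207, a fragment of 583 bases whose coding end is not annotated, held 6.72%, 10.03% and 24.0% in tet-ZFP36L1 and 4.80%, 5.97% and 3.02% in tet-control. Its tail is unknown, so it was put in neither class, and by TPM it held 66.2% in tet-ZFP36L1 at 24 h. The largest shift was in NRP2-204. Its 3' UTR holds no TATTTAT and 1 TATTTAA, and a bearing of either on the shift was not tested.

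The genes whose levels over the 6 libraries lay nearest to those of VEGFA, among 11019 protein-coding genes and by Euclidean distance of centred log2 levels, were LIF (0.25), THSD4 (0.27) and ACP7 (0.34). LIF, a cytokine of the IL6 family, stood at 412.2, 153.8 and 100.2 CPM in tet-ZFP36L1 and 195.0, 304.2 and 185.0 CPM in tet-control, and so was highest in uninduced tet-ZFP36L1 and highest at 6 h within tet-control, as VEGFA was. Nearest to NRP2 were SHISA2 (0.83), UBE2S (0.92) and TUBB3 (1.05), at larger distances. UBE2S, a ubiquitin-conjugating enzyme of mitosis, stood at 474.5, 132.8 and 96.4 CPM in tet-ZFP36L1 and 469.8, 435.4 and 566.2 CPM in tet-control. These are descriptions over 6 libraries of 2 lines.

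The rest of the pathway was read from 7 lists of 53 genes, 37 of them measured. At 6 h 2 of these were lower (SEMA3C and ZFP36L2) and 2 higher (PLXNA2 and SPHK1). At 24 h 5 were lower, HIF1A, EPAS1 and PDGFC being added, and 3 were higher, PDGFD being added. These counts stand against the same backgrounds, 2.54% lower and 0.739% higher at 6 h, and 4.98% lower and 2.74% higher at 24 h. The median induction difference of the 37 was -0.19 at 6 h and -0.25 at 24 h, nearer to 0 than that of the VEGF ligands and neuropilins.

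**Figure D5:**
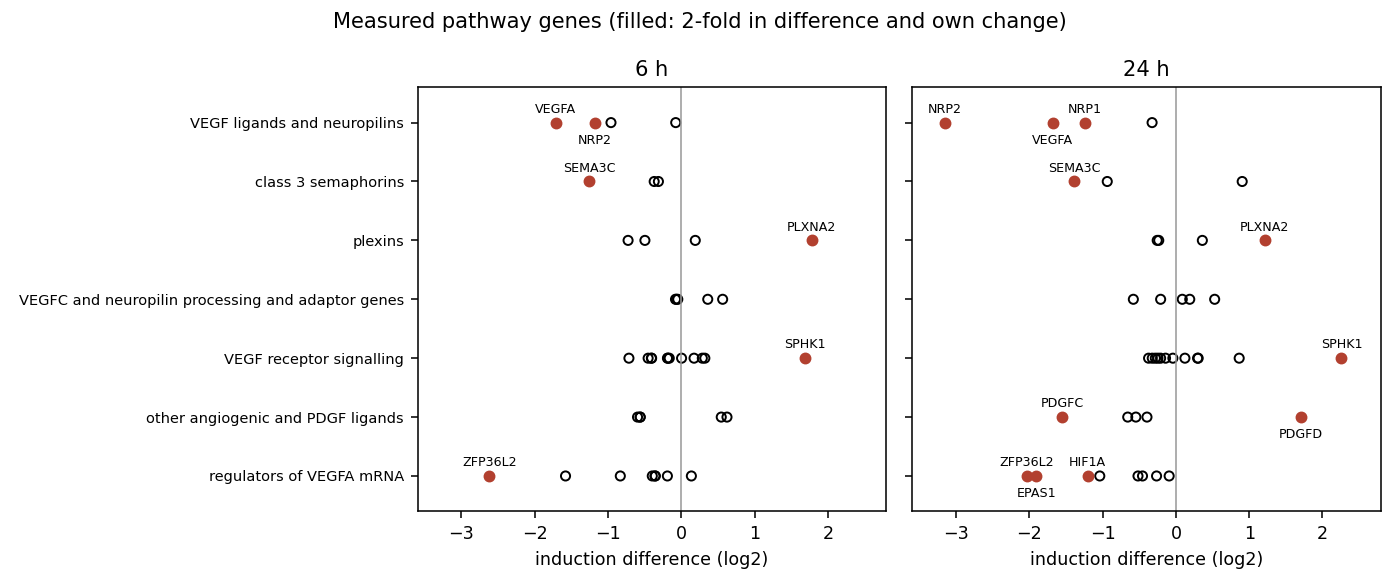
Induction difference (log2) of each measured gene of the VEGF ligands and neuropilins and of the 6 pathway lists with a measured gene, at 6 and 24 h; filled points are 2-fold or more in that difference and in the change within tet-ZFP36L1 as well. NRP2 at 24 h (-3.15) and ZFP36L2 at 6 h (-2.62) lie farthest to the left.

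None of the 3 VEGF receptor genes reached the minimum. KDR, the main receptor of VEGFA on endothelium, had 0 counts in every library, and FLT1 and FLT4 had mean counts of 9.5 and 2.83. VEGFD, a ligand of FLT4, had a mean count of 3.33. Of the class 3 semaphorins, secreted guidance proteins that bind neuropilins, 3 of 7 were measured. SEMA3C, which binds both neuropilins, was lower at both times, at 116.6, 50.3 and 39.6 CPM in tet-ZFP36L1 and 272.3, 281.5 and 244.1 CPM in tet-control, with induction differences of -1.25 and -1.39. SEMA3A, a ligand of NRP1, stood at 36.9, 23.3 and 23.7 CPM in tet-ZFP36L1 and 13.01, 10.2 and 16.2 CPM in tet-control, under 2-fold at both times (-0.31 and -0.94). SEMA3E, which signals through PLXND1 without a neuropilin, had differences of -0.37 and 0.90.

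Of the plexins, the signalling partners of neuropilins, 4 of 5 were measured. PLXNA2 was higher at both times, at 5.06, 16.9 and 11.2 CPM in tet-ZFP36L1, while tet-control held 1, 0 and 0 counts. Its own change in tet-ZFP36L1 was 1.65 and 1.08, and no fold against tet-control is given. It passed the count minimum through tet-ZFP36L1 alone, and its induction difference sets that change against a tet-control change at the floor. Without PLXNA2 the higher pathway genes numbered 1 at 6 h and 2 at 24 h. PLXNA1, PLXNA3 and PLXND1 had induction differences between -0.73 and 0.36. Among the genes that process VEGFC or bind the neuropilin tail, 5 of 6 were measured and none was counted. GIPC1, the adaptor of the NRP2a tail, stood at 142.9, 157.9 and 138.6 CPM in tet-ZFP36L1 and 172.3, 148.2 and 157.4 CPM in tet-control, with induction differences of 0.36 and 0.09. The largest differences in that list were 0.56 at 6 h for PCSK7, a proprotein convertase that cleaves VEGFC, and -0.58 at 24 h for ADAMTS3, which cleaves it too.

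In VEGF receptor signalling, 1 of 12 measured genes of 15 listed was counted. SPHK1, the sphingosine kinase, was higher at both times, at 15.2, 98.9 and 52.5 CPM in tet-ZFP36L1 and 26.8, 53.3 and 18.8 CPM in tet-control, with induction differences of 1.69 and 2.26. It was highest at 6 h in both lines. Of the angiopoietins, PDGFs and other angiogenic ligands, 5 of 8 were measured. PDGFC was lower at 24 h, at 26.6, 17.3 and 9.47 CPM in tet-ZFP36L1 and 32.9, 31.9 and 35.6 CPM in tet-control (-1.55). PDGFD was higher at 24 h, at 2.90, 1.76 and 8.05 CPM in tet-ZFP36L1 and 5.11, 1.93 and 3.85 CPM in tet-control (1.70), on 34 to 176 counts in tet-ZFP36L1 and 36 to 103 in tet-control.

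All 8 genes listed as regulators of VEGFA mRNA were measured. HIF1A and EPAS1 encode the oxygen-regulated subunits of the factors that transcribe VEGFA in low oxygen. HIF1A stood at 395.4, 250.0 and 161.8 CPM in tet-ZFP36L1 and 315.8, 355.9 and 298.7 CPM in tet-control, with induction differences of -0.83 and -1.21. EPAS1 stood at 127.7, 71.8 and 45.3 CPM in tet-ZFP36L1 and 10.9, 18.7 and 14.7 CPM in tet-control, with induction differences of -1.58 and -1.91. It was higher in tet-ZFP36L1 at every time. ZFP36L2, a paralogue of ZFP36L1, stood at 62.3, 12.8 and 15.8 CPM in tet-ZFP36L1 and 34.3, 44.7 and 36.6 CPM in tet-control (-2.62 and -2.04). HIF1A and EPAS1 stepped down over time in tet-ZFP36L1, as VEGFA did, while ZFP36L2 was lowest there at 6 h. Whether any of them bears on the level of VEGFA was not tested. These are levels in bulk RNA, in which fewer cells with a transcript and less of it per cell cannot be told apart.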

How the data were processed

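Total RNA of 6 J82 cultures was read on a BGISEQ-500 instrument, per the labels' protocols, and titles gave the groups. Tools and build were kallisto, DESeq2 and hg19, per the submitters' processing notes. The deposited estimated counts per transcript are fractional, as kallisto shares reads out among transcripts, and the deposited TPM values are scaled for transcript length and depth. Strand use was not given in the sources used here. Reads of antisense genes may thus be mixed in. Each table lists 196354 transcripts. Of these, 181854 matched GENCODE 29 (GRCh38) by identifier, and the rest, 5.12% to 5.47% of estimated counts, were left out. The deposited length differed from the GENCODE 29 length for 1 matched transcript of VEGFB, 2 of NRP1 and 1 of NRP2. Positions are those of GRCh38, without conversion.

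Gene sums of estimated counts were rounded and scaled by TMM (edgeR 4.0.16, R 4.3.3), with values as log2(CPM + 0.5), which understates changes of low genes. With 1 library per group, no edgeR or DESeq2 test was run. Intervals are 95%, from Poisson counts by the delta method, or exact for single levels, shares and ratios of neighbours. Of 31-base words in the members' transcripts, none in VEGFA, VEGFB or VEGFC, 2.95% in PGF, 0.741% in NRP1 and 1.07% in NRP2 were shared with another matched gene.

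The members, lists and rules were chosen with earlier results of these data known. All members are named, with every pathway gene counted, otherwise at most 2 per list by size of difference, the 3 nearest genes, and transcripts with at least 10% of their gene's counts. Some genes that this rule allows are given as a range. A few other transcripts are named where a search or a sum rests on them. Marker lists were read as sums, and the epithelial markers are named singly as well. The alternatives tried were size factors of DESeq2 1.42.0, plain CPM, deposited TPM, other pseudocounts, count minimums and thresholds, a further comparison with tet-control, the own change alone, protein-coding transcripts alone, and scaling without the tet-ZFP36L1 library at 24 h.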

Additional observations from a re-analysis of the deposited data

Results flagged for a closer look

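The 4 measured members and 37 measured pathway genes were each looked at for 6 h and for 24 h. In 12 results among them, the lines moved in opposite directions from 0 h, each beyond its counting interval. No minimum size of change was asked for. The share over all measured genes was not computed, so the number is not read as particular to these genes. In 10 of them the gene was lower in tet-ZFP36L1 and higher in tet-control. These were the induction differences of VEGFA (-1.72), PRKCA (-0.71), HIF1A (-0.83), EPAS1 (-1.58), SP1 (-0.35) and ZFP36L2 (-2.62) at 6 h, and of SEMA3A (-0.94), EPAS1 (-1.91), HNRNPL (-0.46) and ZFP36 (-1.04) at 24 h. GIPC1 at 6 h (0.36) and SPHK1 at 24 h (2.26) were higher in tet-ZFP36L1 and lower in tet-control. The difference between the lines was not tested in any of them, since each group has 1 library.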

How the results depend on the processing

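The number of members counted lower at 6 h (2) was 0 with deposited TPM and 0 with a pseudocount of 5. It was 1 when a 2-fold gap to tet-control at the same time was also asked for. The shares over all genes were 2.88%, 1.17% and 1.48%. That last rule, with the gap to tet-control, gave 1 in place of 3 at 24 h (3.24% over all genes). The other alternatives gave 2 or 3 at 6 h and 3 at 24 h, with 1.395% to 8.85% and 2.25% to 14.3% over all genes. No member was higher at 6 h, and at 24 h 1 was without a filter on low counts, from the noncoding VEGFC transcript. Pathway genes lower at 6 h (2) were 5 at 1.5-fold and 4 by the own change alone, where the share over all genes was 8.85% and 5.43%. Those higher at 6 h (2) were 1 with deposited TPM, 1 with the further gap to tet-control and 4 by the own change alone, with 0.781%, 0.411% and 2.10% over all genes. At 24 h those lower (5) were 8 at 1.5-fold and 3 with the further gap (14.3% and 3.24% over all genes), and those higher (3) were 5 at 1.5-fold and 1 with a pseudocount of 5 (9.45% and 0.924%). The cause of these shifts was not tested. The induction difference of VEGFB at 6 h (-0.08) turned to 0.065 with protein-coding transcripts alone, and at 24 h it ran from -0.34 to -0.08. Over the alternatives, those of VEGFA ran from -1.98 to -1.46 at 6 h and -1.94 to -1.34 at 24 h, of NRP1 from -0.97 to -0.86 and -1.25 to -1.01, and of NRP2 from -1.31 to -0.73 and -3.26 to -1.45. The share of VEGFA without the 132-base exon in tet-ZFP36L1 at 24 h (23.8%) was 30.8% of TPM and 37.5% of protein-coding estimated counts, and that of NRP2a (4.48%) was 0.769% of TPM. The VEGFA value by TPM rests in part on 5.94 estimated counts of the short VEGFA-210. No paired analysis was possible because each group has 1 library and the labels give no replicate numbers. Low counts limit the values of VEGFC, PGF, the NRP2a tail at 24 h and the VEGF receptors.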
